A study of Mus musculus with 46 samples.

Results

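The data describe how fast individual transcripts were lost after transcription was blocked in PrE-induced mouse cells compared with EPS cells. The comparison rests on 12 of the 46 libraries of the series, all from 1 table of counts per gene. PrEdiff cells were EPSCs cultured in a medium that induces PrE, and EPS cells were labelled EPSC alone, a pluripotent stem cell type. Both states carried the label of actinomycin D treatment and were sampled at 0, 1 and 2 h, with 2 libraries for each state and time, and 3 h libraries of both states are used where named. The labels gave no genotype, clone, dose or culture for these libraries, and the question, as the series states it, was RNA stability across states. For each of 14060 genes tested, of 21812 listed, a straight line was fitted to log2 CPM (counts relative to the scaled library total) against time in each state, and the slope in EPS was subtracted from the slope in PrEdiff. A positive difference thus means that the transcript kept more of its 0 h share of the RNA in PrEdiff than in EPS.

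Actinomycin D binds DNA and stops RNA polymerases, so that a transcript that is no longer made falls at the rate at which it is degraded. Messages of transcription factors, signalling inhibitors and immediate early genes are generally short-lived, often through AU-rich elements in the 3′ UTR that recruit deadenylating enzymes, whereas messages of ribosomal and respiratory chain proteins are long-lived. PrE is the extraembryonic endoderm lineage that leaves the pluripotent inner cell mass under FGF signalling and the factors Gata6, Gata4 and Sox17. The counts are relative, so a positive slope is a rise in share among the transcripts that remain and does not by itself show new synthesis. In bulk samples, fewer cells of a type and less RNA per cell cannot be told apart.

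The libraries held between 14927080 and 20080710 counts. Between replicate libraries, chi-square over its degrees of freedom was 1.19 to 1.30, little above sampling noise, and nothing in the labels says that they came from separate cultures. The p-values therefore measure only the spread of these libraries, which may be technical. For the slopes this is the spread around a straight line, which also holds any bend between the hours and not only differences between replicates. At 0 h the states matched their labels, with Gata6 at 129.7 CPM on average in PrEdiff and 4.46 in EPS, and Nanog at 52.5 CPM in PrEdiff and 339 in EPS. PrE markers held 0.391% to 0.395% of the counts in PrEdiff libraries at 0 h, against 0.0146% to 0.0151% in EPS. Fibroblast feeder markers held 0.0162% to 0.0169% in PrEdiff at 0 h and 0.0227% to 0.0229% in EPS, and 0 of their 12 tested members differed in slope. Their part in the results was not tested.

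Transcript levels moved apart less in PrEdiff than in EPS over the same 2 h. The SD of the slopes over all genes tested was 0.32 log2 units per hour in PrEdiff and 0.42 in EPS, and the 5th to 95th percentiles ran from −0.61 to 0.43 in PrEdiff and from −0.77 to 0.59 in EPS. Scaling shifts all genes of a library together and does not change these widths. Over 8559 genes with a mean of at least 10 CPM, the SD of the log2 change between 0 and 2 h was 0.580 to 0.590 for the pairs of PrEdiff libraries and 0.775 to 0.783 for the pairs of EPS libraries. The ranges did not overlap, although the pairs share libraries. In the first hour the SD was 0.325 to 0.328 in PrEdiff and 0.535 to 0.541 in EPS. In the second hour it was 0.286 to 0.296 in PrEdiff and 0.298 to 0.305 in EPS. Between 0 and 3 h the SD was 0.597 to 0.602 in PrEdiff and 0.648 to 0.649 in EPS, so the states lay closer than between 0 and 2 h.

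**Figure D1:**
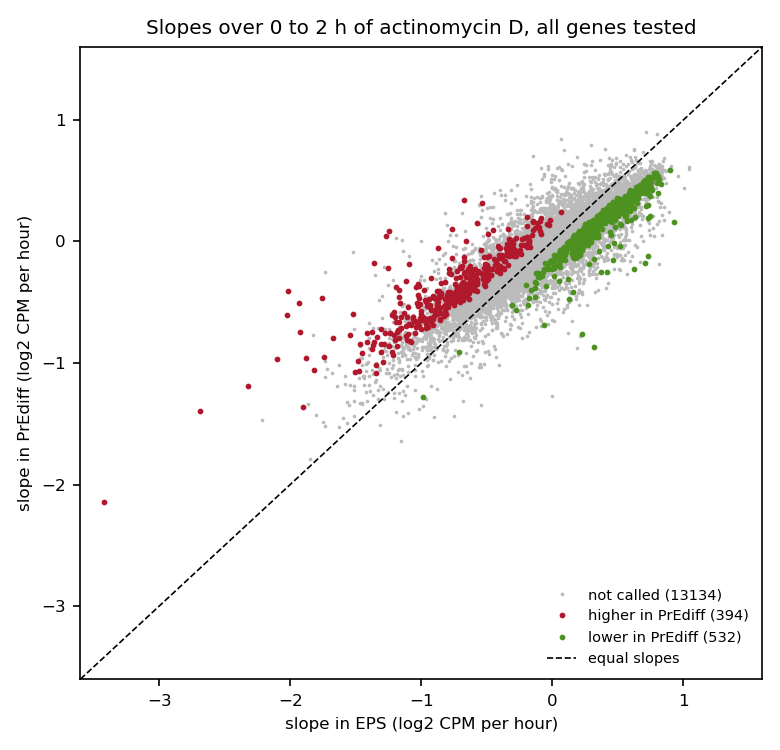
Slope per hour in PrEdiff (y axis, log2 CPM per hour) against slope per hour in EPS (x axis) for the genes tested, with the dashed line at equal slopes. The 394 genes with a higher slope in PrEdiff lie mostly among transcripts lost in EPS and the 532 with a lower slope mostly among those that gained share. 1 gene lies outside the axes.

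The slope differed between states for 926 genes, or 6.59% of those tested (edgeR quasi-likelihood test, Benjamini-Hochberg adjusted p under 0.05). It was higher in PrEdiff for 394 (2.8%) and lower for 532 (3.78%), and 3787 genes had an unadjusted p under 0.05. Of the 394, 318 (80.7%) fell in both states and 61 (15.5%) fell in EPS alone by the tests of the separate slopes, against 26.1% and 5.65% of all genes. Of the 532, 348 (65.4%) gained share in both states and 114 (21.4%) in EPS alone, against 26.4% and 8.8% of all genes. The tested difference is made of these same slopes, so the classes are no separate support. For comparison, 59.6% of all genes had a called slope in PrEdiff (29.1% upward and 30.5% downward) and 67.2% in EPS (35.3% upward and 31.8% downward). The 2 h minus 0 h changes of the library pairs were apart between states for all 926 genes, and for 50.5% of all genes tested.

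The higher calls stood under other scalings, and the lower calls largely did not. Scaling by RLE size factors gave 513 higher and 160 lower, library totals 1126 and 53, and the summed counts of ribosomal protein genes 971 and 6. The ribosomal scaling moved the median difference of all genes to 0.15 log2 units per hour, from −0.03 under TMM. Library totals moved it to 0.0455, and leaving out any 1 of the 4 libraries at 0 h to between 0.0428 and 0.0475. Calls lost in those fits without a 0 h library thus came with a shift of all genes. Of the 394 higher calls, 365 were called in the same direction under all 4 scalings, and 71 of those also in each of the 12 fits that leave out 1 library. Of the 532 lower calls, 6 were called under all 4 scalings, and 1 of those, Arglu1, in each of the 12 fits as well. Without replicate 1 or 2 of PrEdiff at 2 h, the total was 122 or 168 genes, and without replicate 1 or 2 of EPS at 1 h it was 2012 or 1919. Without either PrEdiff library at 1 h it was 454 or 452. Leaving out any 1 of the 4 libraries at 0 h gave 553 to 571 calls, of which 98.0% to 98.8% were higher.

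**Figure D2:**
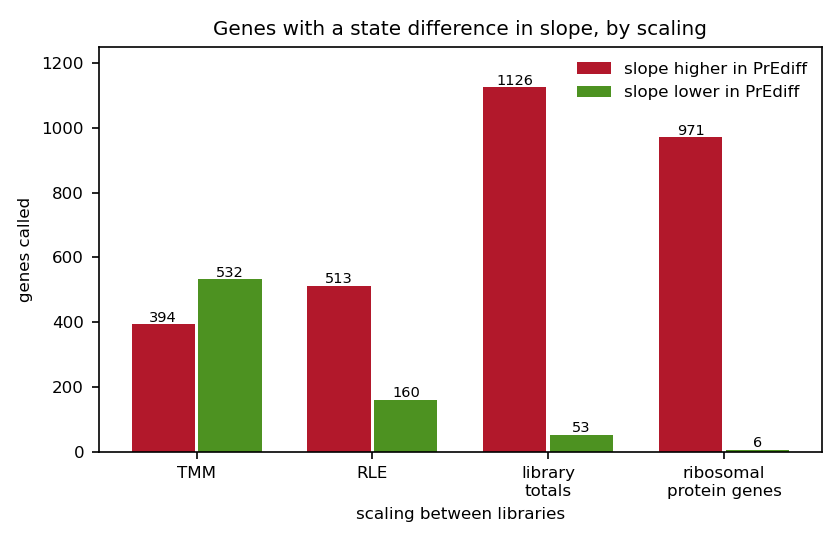
Number of genes called (y axis) with a slope higher or lower in PrEdiff than in EPS under each of 4 scalings between libraries (x axis). Higher calls numbered 394 to 1126, whereas lower calls numbered 532 under TMM and 6 under scaling to ribosomal protein genes.

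Among the BMP, Nodal and Id genes, Lefty1 had a higher slope in PrEdiff. Lefty1 encodes a secreted inhibitor of Nodal, and it had 96.2 and 92.0 CPM at 0 h, 108 and 111 at 1 h, and 105 and 109 at 2 h in PrEdiff. In EPS it had 35.5 and 33.6 CPM at 0 h, 32.1 and 30.2 at 1 h, and 16.4 and 19.03 at 2 h. The PrEdiff libraries thus held 114% of the 0 h mean at 2 h and the EPS libraries 51.2%, and no library pair overlapped. The difference in slope was 0.55 ± 0.09 log2 units per hour (SE, adjusted p = 0.00304). It passed the test under every alternative tried, the addition of the 3 h libraries included.

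Fzd5, a receptor for Wnt ligands, was the less abundant in PrEdiff at every time and was lost more slowly there. It had 13.4 and 15.0 CPM at 0 h, 9.94 and 9.56 at 1 h, and 8.03 and 7.04 at 2 h in PrEdiff. The EPS libraries held 78.7 and 81.2 CPM at 0 h, 37.8 and 34.4 at 1 h, and 19.1 and 20.4 at 2 h. At 2 h, 53.1% was left in PrEdiff and 24.7% in EPS, a slope difference of 0.56 ± 0.08 (adjusted p = 0.00125). Fzd10, of the same receptor family, kept 42.0% in PrEdiff and 17.7% in EPS (difference 0.62 ± 0.09, adjusted p = 0.00231). Bambi, a decoy receptor that dampens BMP signalling, kept 45.5% in PrEdiff and 18.7% in EPS (difference 0.56 ± 0.11, adjusted p = 0.0141), at under 10 CPM in every library. Skil, a repressor of Smad-driven transcription, also had a higher slope in PrEdiff (difference 0.20, adjusted p = 0.0279). Lefty1, Bambi and Skil were the 3 called members of the 15 BMP, Nodal and Id genes, with 0 lower and a median difference of 0.19, against −0.03 over all genes tested. Without either PrEdiff library at 2 h, Skil no longer passed.

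In the FGF and ERK pathway, 2 of 14 listed feedback genes had a higher slope in PrEdiff and 0 a lower one, with a median of 0.12. Il17rd (Sef), an inhibitor of FGF receptor signalling, had 64.6 and 61.8 CPM at 0 h, 45.4 and 43.5 at 1 h, and 28.9 and 33.1 at 2 h in PrEdiff. The EPS libraries held 53.6 and 53.5 CPM at 0 h, 27.4 and 25.5 at 1 h, and 12.5 and 13.2 at 2 h. From similar levels at 0 h, the states were apart by 1 h without overlap, and 49.0% was left in PrEdiff and 24.1% in EPS at 2 h. The slope difference was 0.51 ± 0.05 (adjusted p = 0.000346). Spred2, an inhibitor of the Ras to ERK cascade, differed by 0.29 ± 0.05 (adjusted p = 0.00547). The ligand Fgf4, made by pluripotent cells and needed for PrE formation, was much the lower in PrEdiff, with 15.1 and 14.7 CPM at 0 h, against 128 and 126 in EPS. At 2 h it stood at 7.12 and 6.99 CPM in PrEdiff and 29.4 and 31.8 in EPS, so that 47.3% and 24.1% were left in these states. Its slope difference was 0.49 ± 0.06 (adjusted p = 0.000621).

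**Figure D3:**
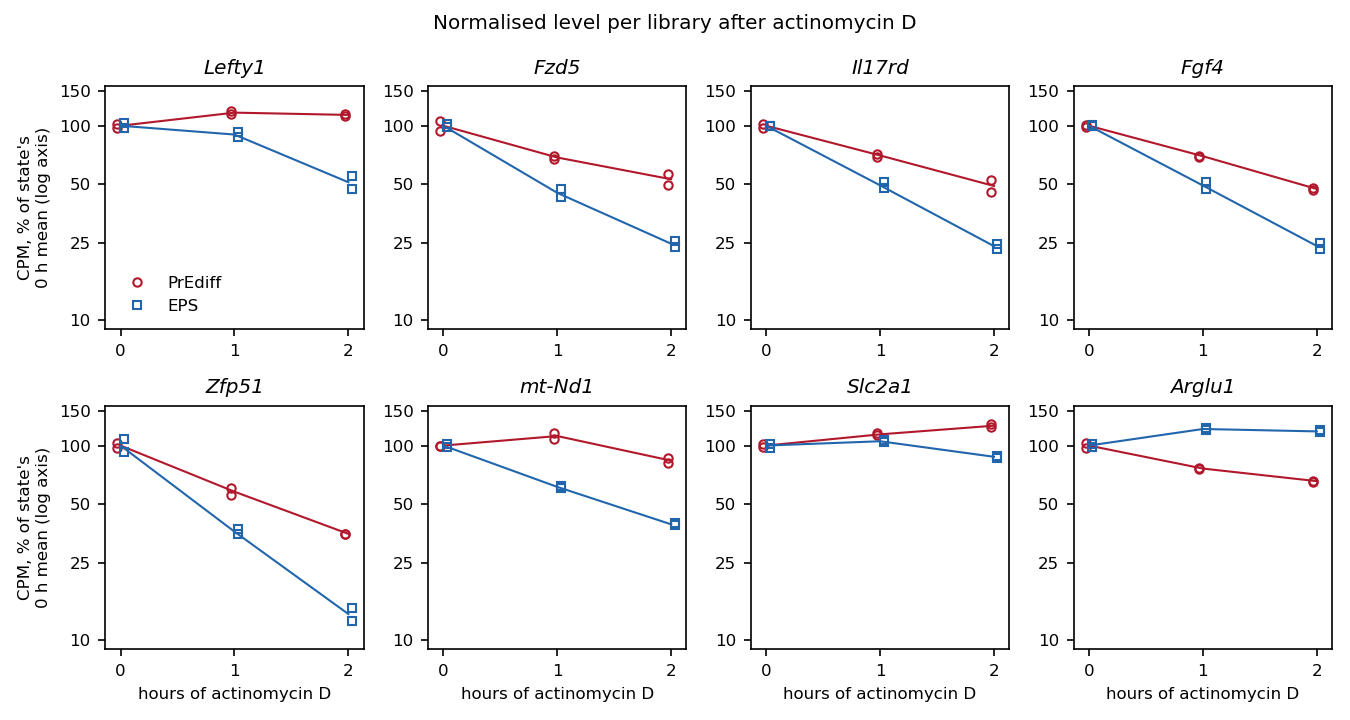
Scaled CPM of 8 genes in each library, as a percentage of the state's 0 h mean (y axis, log), against hours of actinomycin D (x axis). Circles and squares are single PrEdiff and EPS libraries, and lines join the means of 2. Il17rd stood at 49.0% in PrEdiff and 24.1% in EPS at 2 h, and Arglu1 lay in the other order with 65.6% and 118%.

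Immediate early genes, which cells switch on within minutes of a stimulus and whose messages are short-lived, had 4 of 13 members called higher and 0 lower (median 0.12). Klf6, a zinc finger factor, had 137 and 140.0 CPM at 0 h and 48.8 and 47.7 at 2 h in PrEdiff, against 24.3 and 23.8 CPM at 0 h and 5.08 and 5.19 at 2 h in EPS. The difference was 0.34 ± 0.05 (adjusted p = 0.00261). Egr1, a direct target of ERK signalling, had 1.98 and 2.21 CPM at 0 h and 1.502 and 1.67 at 2 h in PrEdiff, against 4.62 and 4.78 CPM at 0 h and 0.535 and 0.932 at 2 h in EPS. Its difference of 1.18 ± 0.16 (adjusted p = 0.00125) passed under every alternative, although few counts lie behind it. Jun (0.55, adjusted p = 0.0480) and the nuclear receptor Nr4a1 (0.35, adjusted p = 0.0472) passed narrowly. Jun lost the call without any 1 of 6 libraries and Nr4a1 without any 1 of 8, the 4 PrEdiff libraries at 1 and 2 h among them in both genes.

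AU-rich stretches of these short-lived messages are shown for 4 called genes, chosen after their values were seen, as the 30 bases of the 3′ UTR with the most ATTTA pentamers. The sequences are from GENCODE M21 transcripts, in the RNA's sense, and the capitals mark ATTTA, the core of AU-rich elements.
Fgf4: tctaagatATTTAaattATTTAaatatgta
Zfp36l2: gaaaaactATTTAacttATTTAttatcttg
Jun: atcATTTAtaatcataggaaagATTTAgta
Nr4a1: gATTTAtatttgtgtattttcctggATTTA
Each window held 2 copies, and the whole 3′ UTR held 6 in Fgf4, 5 in Zfp36l2, 4 in Jun and 3 in Nr4a1. In the 385 higher genes with an annotated transcript, 84.7% of 3′ UTRs held at least 1 ATTTA on the sense strand, against 52.5% of the 520 lower genes and 64.5% of all 13701 genes matched. These shares move with UTR length, whose median was 1537 bases in the higher genes, 459.5 in the lower genes and 931 in all. The longer AU-rich nonamer TTATTTATT was present in 7.53% of the higher, 3.08% of the lower and 7.01% of all genes, so that the higher genes lay near the share of all genes. Per kilobase, the medians of ATTTA were 1.87, 0.709 and 1.22 copies in the same order of gene sets. Median coding length was 1983 bases in the higher, 990 in the lower and 1404 in all genes. GGACT, a form of the m6A consensus, was present in 91.9%, 84.8% and 91.8% of transcripts of these sets. A match describes the letters only.

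Of the lists described here, zinc finger genes, the longest list, held the most higher calls by number. Of 343 tested, 44 had a higher slope in PrEdiff and 3 a lower one (12.8% and 0.875%, against 2.8% and 3.78% of all genes). The median difference was 0.14. By share, several shorter lists stood above it, mitochondrially encoded transcripts the highest with 38.5%. The median slope of the zinc finger genes was 1.05 log2 units per hour below that of ribosomal protein genes in PrEdiff. In EPS it was 1.43 below, and scaling does not change these gaps. Zfp51 had 15.6 and 16.4 CPM at 0 h, 9.67 and 8.91 at 1 h, and 5.61 and 5.66 at 2 h in PrEdiff. In EPS it had 11.8 and 13.7 CPM at 0 h, 4.47 and 4.73 at 1 h, and 1.87 and 1.597 at 2 h. Its levels at 0 h were close and by 2 h were apart by more than any difference between replicates (difference 0.67 ± 0.09, adjusted p = 0.00125). Zfp97, Zfp958 and Zfp936 also had higher slopes in PrEdiff, with differences of 0.62 ± 0.11, 0.59 ± 0.10 and 0.82 ± 0.11. Members of this family, Rex2 included (0.68 ± 0.13), have close copies in the genome, so reads may be shared among them. Under RLE, library totals and ribosomal scaling, 50, 80 and 69 genes of the list were higher. Rex2 lost its call without replicate 1 of PrEdiff at 2 h.

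**Figure D4:**
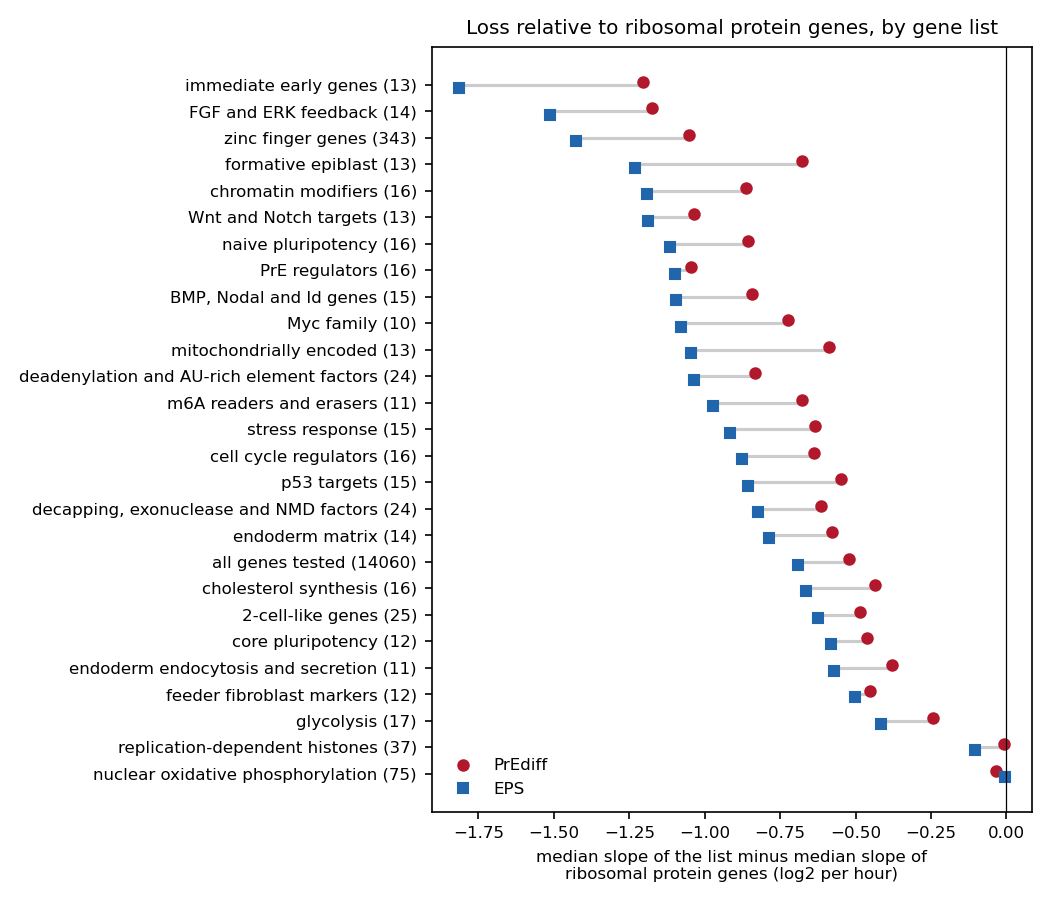
Median slope of each list of at least 10 genes minus the median slope of ribosomal protein genes (x axis, log2 per hour), in PrEdiff (circles) and EPS (squares), with the number of genes tested in brackets. Immediate early genes lay at −1.21 in PrEdiff and −1.82 in EPS, and nuclear oxidative phosphorylation genes at −0.03 and −0.01.

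Among called genes with a gene name and 10 CPM or more at 0 h in both states, the widest difference was that of Zbed6, a transcription factor derived from a transposon and a repressor of Igf2. It had 35.4 and 33.7 CPM at 0 h, 6.19 and 7.65 at 1 h, and 2.09 and 1.73 at 2 h in PrEdiff. In EPS there were 22.0 and 21.0 CPM at 0 h, 0.927 and 0.788 at 1 h, and 0.468 and 0.732 at 2 h. The difference was 1.27 ± 0.31 (adjusted p = 0.0275). Zbed6 lies within Zc3h11a on the same strand in the GENCODE M21 annotation, and unspliced RNA of that host may be counted with it. Pdpr, a regulatory subunit of pyruvate dehydrogenase phosphatase, and Kmt2c, a histone H3K4 methyltransferase, differed by 0.92 ± 0.20 and 0.77 ± 0.20 (adjusted p = 0.0209 and 0.0336). All 3 genes were called in the first hour and none in the second (edgeR quasi-likelihood test). Zbed6 changed by −2.30 log2 units in PrEdiff and −4.48 in EPS in that hour, and by −1.81 and −0.45 in the next. Pdpr lost the call without either PrEdiff library at 2 h, and Zbed6 without those, without replicate 2 of PrEdiff at 1 h and under DESeq2. Kmt2c lost it without either PrEdiff library at 1 or 2 h, without replicate 1 of EPS at 0 h, under ribosomal scaling and under DESeq2. Itga6, the integrin α6 chain, kept 54.4% in PrEdiff and 26.2% in EPS (difference 0.58 ± 0.13, adjusted p = 0.0243), a call lost without either PrEdiff library at 2 h. Itga6 overlaps Gm13663 and Gm13662 on the same strand, so its reads may be shared.

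With the 3 h libraries added, the sign of Zbed6, Pdpr, Kmt2c and Itga6 turned. In the 3 h EPS libraries, Zbed6 stood at 16.8 and 20.7 CPM, against 0.438 and 0.687 in the same scaling at 2 h. In PrEdiff it stood at 6.43 and 5.90 CPM at 3 h and at 2.09 and 1.74 at 2 h. Pdpr, at 10.1 and 10.9 CPM in PrEdiff and 30.9 and 29.0 in EPS at 3 h, and Kmt2c, at 21.5 and 19.3 CPM in PrEdiff and 33.8 and 33.9 in EPS, were likewise above their 2 h levels. Lefty1, at 62.7 and 61.2 CPM in PrEdiff and 6.55 and 7.04 in EPS at 3 h, and Gata4, at 51.8 and 52.9 CPM in PrEdiff and 1.96 and 2.18 in EPS, were below theirs in every library. Fits with them called 180 genes, 65 of them among the 926. Of the called genes described here, Lefty1, Egr1, Nr4a1, Bambi, Cdkn1a, Gask1b, mt-Nd1 and Slc2a1 passed. The other called genes described did not, whereas 3 described genes that were not called over 0 to 2 h passed. The 3 h libraries did not enter the slopes, and why they stand apart was not tested.

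Of the 13 mitochondrially encoded transcripts, which are made by a separate polymerase from mitochondrial DNA, 5 had a higher slope in PrEdiff and 0 a lower one (median 0.19). mt-Nd1, a subunit of complex I, had 1499.7 and 1499.8 CPM at 0 h, 1738 and 1619 at 1 h, and 1289 and 1219.5 at 2 h in PrEdiff. In EPS it had 4577 and 4708 CPM at 0 h, 2809.6 and 2884 at 1 h, and 1806 and 1849 at 2 h. In PrEdiff 83.6% was left at 2 h and in EPS 39.4%, a difference of 0.54 ± 0.07 (adjusted p = 0.00125) that passed under every alternative. mt-Nd2 differed by 0.65 ± 0.12 and mt-Cytb, of complex III, by 0.30 ± 0.07. mt-Nd2 lost the call without replicate 1 of PrEdiff at 2 h and mt-Cytb without either replicate. Nuclear copies of mitochondrial DNA may share reads with these genes. The whole group held 2.04% to 2.13% of the counts in PrEdiff at 0 h and 1.49% to 1.57% at 2 h, against 2.82% to 2.94% in EPS at 0 h and 1.11% to 1.15% at 2 h.

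Single genes of sterol synthesis and glucose uptake also had higher slopes in PrEdiff. Idi1, an enzyme of sterol precursor synthesis, differed by 0.43 ± 0.09 (adjusted p = 0.0172, lost without either PrEdiff library at 2 h), whereas 2 of the 16 cholesterol genes, Fdft1 and Pmvk, had a lower slope in PrEdiff under TMM and under none of the other scalings. Slc2a1, the glucose transporter GLUT1, had 519 and 541 CPM at 0 h and 661 and 679.9 at 2 h in PrEdiff, against 135 and 129 CPM at 0 h and 118 and 114 at 2 h in EPS. Its slope was positive in PrEdiff and negative in EPS, both called, and differed by 0.26 ± 0.05 (adjusted p = 0.0118). It was the only called gene of 17 on the glycolysis list.

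Messages of proteins that themselves govern decay moved in both directions. Of 24 deadenylation and AU-rich element factors, 6 had a higher slope in PrEdiff and 4 a lower one (median −0.01). Pum2, Zfp36l2 and Tob2 were among the 6. Zfp36l2, which binds AU-rich elements and recruits deadenylases, had 41.4 and 40.4 CPM at 0 h and 17.2 and 15.8 at 2 h in PrEdiff, against 44.7 and 49.3 CPM at 0 h and 11.04 and 11.2 at 2 h in EPS. It differed by 0.40 ± 0.06 (adjusted p = 0.00243). Pum2, which binds UGUA-containing sites in 3′ UTRs, differed by 0.21 ± 0.04, and Tob2, an adaptor of the deadenylase complex, by 0.40 ± 0.09. The 4 lower calls, Cnot8, Elavl1, Hnrnpd and Celf1, were between −0.15 and −0.12, and under each of the 3 other scalings 0 genes of this list were lower. Of 24 decapping, exonuclease and NMD factors, 2 were lower and 0 higher. They were the helicase Ddx6 and the exosome subunit Exosc3 (−0.30, lost under ribosomal scaling and without any 1 library at 0 h or any PrEdiff library at 2 h). RLE and library totals gave 1 lower gene of this list and ribosomal scaling 0, and library totals gave 2 and ribosomal scaling 3 higher. Of 9 m6A writer genes 0 were called, with a median of −0.02, and of 11 readers and erasers Hnrnpa2b1 alone was (−0.13, adjusted p = 0.0458), a call lost under each other scaling and with no low-count filter. Under library totals 1 writer and 2 readers or erasers were higher, and under ribosomal scaling 1 writer and 0 readers or erasers. The cell cycle inhibitors Cdkn1b (0.27) and Cdkn1a (0.24) and the kinase Wee1 (0.30), which delays entry into mitosis, had higher slopes in PrEdiff. Tob2, Cdkn1b and Cdkn1a lost the call without either PrEdiff library at 2 h, Cdkn1a also without replicate 1 of EPS at 2 h, and Wee1 without replicate 2 of PrEdiff at 2 h.

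Among genes with a lower slope in PrEdiff, Arglu1 changed in opposite directions in the 2 states. Arglu1 encodes an arginine- and glutamate-rich nuclear protein of transcription and splicing. It had 71.9 and 76.2 CPM at 0 h, 55.9 and 57.0 at 1 h, and 49.0 and 48.3 at 2 h in PrEdiff. In EPS it had 105 and 109 CPM at 0 h, 128 and 132 at 1 h, and 125 and 128 at 2 h. The slopes were −0.31 ± 0.04 and 0.12 ± 0.04 in PrEdiff and EPS, and their difference was −0.43 ± 0.05 (adjusted p = 0.00116), lost only with the 3 h libraries added among the alternatives tried. Mettl17, a factor of the mitochondrial ribosome, had 13.6 and 13.6 CPM at 0 h and 8.10 and 7.56 at 2 h in PrEdiff, against 28.9 and 28.4 CPM at 0 h and 35.3 and 35.6 at 2 h in EPS. Its difference was −0.57 ± 0.08 (adjusted p = 0.00232), held in each fit without 1 library and lost under ribosomal scaling. It overlaps Slc39a2 on the same strand, so its reads may be shared. Of the 926 genes with a called difference, 22 had called slopes of opposite sign, 8 of them positive in PrEdiff and 14 positive in EPS. The splicing regulators Srsf6, Tra2b and Hnrnpdl were among the 14, named after their values were seen.

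Cox17, a copper chaperone for cytochrome c oxidase, had 15.8 and 14.9 CPM at 0 h, 3.92 and 4.53 at 1 h, and 5.94 and 6.41 at 2 h in PrEdiff, against 11.6 and 12.7, 11.7 and 13.8, and 15.99 and 17.2 CPM in EPS at the same times. The PrEdiff libraries were lowest at 1 h, and the EPS slope was not called (difference −0.99 ± 0.21, adjusted p = 0.0206, lost without either PrEdiff library at 0 h, under ribosomal scaling, under DESeq2 and with no low-count filter). Cox17 overlaps Gm21987 on the same strand, so its reads may be shared. Chchd7, of the mitochondrial intermembrane space, and Magohb, of the exon junction complex, gained share in both states, with lower slopes in PrEdiff (differences −0.43 ± 0.09 and −0.40 ± 0.08). Magohb was called under all 4 scalings and lost its call without any 1 of 6 libraries, those at 0 h in both states and at 2 h in PrEdiff. Chchd7 lost it without any 1 of 5 of these 6 and under ribosomal scaling. Gask1b, a Golgi protein, differed by −0.37 ± 0.08 (lost without any 1 of 4 libraries), and the other 6 of the 12 lowest genes (Zdhhc4, Crabp1, Npr1, Polr2g, S100a10 and Amdhd2) by −0.36 to −0.33, each lost under ribosomal scaling, as was Gask1b, and without 3 to 8 of the 12 libraries, left out one at a time.

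Ribosomal protein genes had 3 of 76 called lower and 0 higher, and nuclear oxidative phosphorylation genes 11 of 75 lower and 0 higher, with medians of −0.20 and −0.21. The 3 other scalings gave 0 lower ribosomal protein genes, and for oxidative phosphorylation RLE gave 2 and both others 0. Rpl14, of the large ribosomal subunit, had 1335 and 1337 CPM at 0 h and 2675 and 2676 at 2 h in PrEdiff, against 1430.0 and 1439 CPM at 0 h and 4008 and 3986 at 2 h in EPS (difference −0.24 ± 0.07, adjusted p = 0.0484). Cox6b1, of complex IV, differed by −0.25 ± 0.06 and Ndufa12, of complex I, by −0.28 ± 0.07. None of these 3 passed under library totals or ribosomal scaling, or without any 1 of the 8 libraries at 0 h in both states and at 1 and 2 h in PrEdiff. Ribosomal protein genes made up 9.30% to 9.35% of the counts in PrEdiff at 0 h and 15.4% at 2 h, against 8.86% to 8.87% in EPS at 0 h and 17.1% to 17.2% at 2 h.

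Of 16 PrE regulators, 0 had a higher slope in PrEdiff and 1, Gata4, a lower one (median −0.20). Gata6, the factor that initiates PrE identity, had 127 and 133 CPM at 0 h, 88.4 and 90.0 at 1 h, and 57.7 and 57.6 at 2 h in PrEdiff. Its EPS levels were 4.42 and 4.50 CPM at 0 h, 3.49 and 3.77 at 1 h, and 2.01 and 2.13 at 2 h. The share left at 2 h was 44.4% in PrEdiff and 46.3% in EPS, and the difference of −0.09 ± 0.10 did not pass (adjusted p = 0.684). Gata4 had 156 and 154 CPM at 0 h and 84.9 and 76.4 at 2 h in PrEdiff, against 2.79 and 3.43 CPM at 0 h and 3.54 and 3.79 at 2 h in EPS. Its difference was −0.60 ± 0.10 (adjusted p = 0.0069), which rests on a low level in EPS and was lost without replicate 1 of EPS at 0 h. Sox17 fell to 5.48 and 6.18 CPM at 2 h in PrEdiff and Sox7 to 17.0 and 16.3, leaving 16.7% and 17.6% of the 0 h means. In EPS both began below 2 CPM, and their differences (Sox17 −0.17, adjusted p = 0.984, and Sox7 −0.33, adjusted p = 0.638) were not resolved at that level. Pdgfra, the receptor that marks PrE, differed by −0.16 ± 0.08 (adjusted p = 0.227). Of 14 endoderm matrix genes, 1 had a lower slope in PrEdiff and 0 a higher one (median −0.02, 6 of 14 differences positive), and of 11 endocytosis and secretion genes 2 were lower and 0 higher (median −0.13, 4 of 11 positive), against 3.78% lower over all genes. They were the matrix protein Sparc (−0.18), the protease Ctsl (−0.19) and the water channel Aqp8 (−0.38), and all 3 lost the call under library totals, under ribosomal scaling and without any 1 library at 0 h or any PrEdiff library at 2 h. Under RLE and library totals, 1 endoderm matrix gene was higher and 0 lower, with list medians of 0.0175 and 0.0645. Ribosomal scaling called 0 of that list (median 0.178) and gave 1 PrE regulator higher and 1 lower.

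Pluripotency factors were mixed. Sox2 had 42.6 and 41.0 CPM at 0 h, 26.0 and 27.6 at 1 h, and 15.1 and 12.7 at 2 h in PrEdiff. In EPS it had 313 and 317 CPM at 0 h, 173 and 170.2 at 1 h, and 67.2 and 65.1 at 2 h. In PrEdiff 33.2% was left at 2 h and in EPS 21.0% (difference 0.34 ± 0.08, adjusted p = 0.0316, lost without replicate 1 of either state at 2 h). Sox2 overlaps Sox2ot on the same strand, so its reads may be shared. Pou5f1 (Oct4) gained share in both states, to 587 and 574 CPM at 2 h in PrEdiff and to 2153 and 2151 in EPS. Its difference of −0.20 ± 0.06 (adjusted p = 0.0443) passed under TMM alone of the 4 scalings, as did those of Esrrb (−0.15) and Sall4 (−0.19), and these 3 calls were lost without any 1 library at 0 h, that of Esrrb also under DESeq2 and with no low-count filter. The orphan receptor Nr5a2 differed by 0.37 ± 0.09 (adjusted p = 0.0262, lost without replicate 2 of PrEdiff at 2 h). Nanog had 44.6 and 45.0 CPM at 2 h in PrEdiff and 309 and 304 in EPS, or 85.3% and 90.5% of the 0 h means, and its difference was −0.04 ± 0.04 (adjusted p = 0.489). Klf4 (0.18), Klf5 (−0.05), Tfcp2l1 (−0.01), Zfp42 (0.19), Myc (0.28) and Mycn (0.20) did not pass under TMM. Of all genes described as not passing, PrE regulators included, 3 passed with the same sign under RLE. Under library totals, ribosomal scaling, DESeq2 and without the 1 h libraries, 4 did so in each. Of the 12 core pluripotency genes 1 was higher and 4 lower, and of the 16 naive genes 2 were higher and 1 lower. Under ribosomal scaling these counts were 1 and 0 of the core genes and 5 and 0 of the naive genes.

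Across the lists of at least 10 genes, the median slope lay closer to that of ribosomal protein genes in PrEdiff than in EPS in 25 of 26. The median of all genes tested did the same, with gaps of −0.52 in PrEdiff and −0.69 in EPS, so this count is not particular to the lists. Of the remaining lists, formative epiblast genes had 2 of 13 higher and 1 lower, chromatin modifiers 2 of 16 and 0, cell cycle regulators 2 of 16 and 0, p53 targets 2 of 15 and 0, and stress response genes 1 of 15 each way. Replication-dependent histones had 0 of 37 higher and 1 lower, and 0 were called of 13 Wnt and Notch targets, 10 Myc family genes, 7 trophoblast markers, 25 2-cell-like genes, 2 snoRNA host genes and 1 long noncoding RNA. These counts moved with scaling. Under library totals and ribosomal scaling, 3 and 4 Myc family genes and 4 and 7 stress response genes were higher, with 0 lower in either list.

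The first hour differed between states for 4765 genes (33.9%), with 1977 higher (14.1%) and 2788 lower (19.8%) in PrEdiff. The second hour differed for 780 (5.55%), with 191 higher (1.36%) and 589 lower (4.19%). Under ribosomal scaling the split was 7909 and 121 in the first hour, and under library totals it was 384 and 203 in the second. Both hours were called for 472 genes, of which 368 had opposite signs. The hours share the 1 h libraries, so this count has no test. Of the 926 genes with a slope difference, 817 were also called in the first hour and 110 in the second. The straight-line fit counts a bend between the hours as spread, which by construction lowers its number of calls. For Slc2a1 the difference was 0.12 log2 units in the first hour and 0.41 in the second, and for Lefty1 it was 0.37 and 0.77, all 4 called. Idi1 (0.86) and Itga6 (1.03) were called in the first hour, and their second-hour differences of −0.05 and 0.01 did not pass.

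The same genes were read in a separate table of PrE-induced cells labelled Virma cKO or WT, with 2 libraries each. Virma is a subunit of the m6A writer complex, and its own transcript averaged 61.1 ± 9.25 CPM in cKO and 108 ± 2.19 in WT (SD). Of the 389 higher genes tested there, 15.4% fell and 21.6% rose in cKO, against a background of 18.6% falling and 15.4% rising. Of the 527 lower genes tested, 38.7% fell and 5.88% rose. Both sets are those called under TMM, and 365 of the 394 higher but 6 of the 532 lower genes were called under all 4 scalings. The lower genes had shorter transcripts than all genes, and the part of length in these shares was not tested. Gata6 fell in cKO (4.71 CPM in cKO and 87.5 in WT on average), as did Gata4 (8.07 CPM in cKO and 106.7 in WT). The higher genes described went both ways, as with Il17rd, which rose (45.0 CPM in cKO and 22.9 in WT), and Klf6, which fell (103 CPM in cKO and 182.5 in WT).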

How the data were processed

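RNA was extracted with TRIzol and sequenced on an Illumina NovaSeq from total RNA libraries, per the labels' protocols, which name 2 kits without saying which made which library. The authors deposited raw counts per gene. Per the submitters' processing notes, the tools were STAR 2.7.11b and Subread with FastQC 0.12.1, Trim Galore and DESeq2, on mm39. The annotation and strand setting are not given in the sources used here, so overlapping and antisense genes cannot be told apart. Columns were matched by title, and 0 were left out.

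Genes with a count of at least 10 in enough libraries and 15 in all were tested in edgeR 4.0.16 (R 4.3.3), with TMM scaling and a robust quasi-likelihood fit of an intercept and a slope for each state over 12 libraries (8 residual degrees of freedom). Hourly contrasts used a mean for each state and time. Adjusted p is Benjamini-Hochberg over all genes tested, with a threshold of 0.05. The prior count was 2 and an SE is the estimate over the root of its F statistic. The fit was tested on simulated counts with straight-line changes, a fixed spread and independent libraries. The simulation thus did not cover a bend between the hours or replicates that share a culture. Transcript features came from GENCODE M21 (GRCm38), joined by symbol.

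Members, lists, rule and tests were chosen with earlier results of these data known. Named genes were the 12 highest and 12 lowest called with at least 10 CPM at 0 h in both states, no predicted locus name and no overlap between states, up to 4 called genes of each of 31 lists, and 15 lineage factors. The genes described are part of those the rule named, picked after their values were seen (some are not reported here), as were those in figures, sequences and 3 h values. Alternatives were other scalings, DESeq2 1.42.0, other filters, a replicate block, other times, an effect minimum and leaving out each library. Those of the hourly contrasts, and counts of calls kept across settings, were chosen after seeing the data.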

Additional observations from a re-analysis of the deposited data

Results flagged for a closer look

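The results listed here are those in which the change with time differed between PrEdiff and EPS by the test of that difference itself, the edgeR quasi-likelihood test of the state and time interaction. They number 926 genes for the slope over 2 h, 4765 for the first hour and 780 for the second. The values are differences in slope, PrEdiff minus EPS, in log2 units per hour, and an adjusted p under 0.05 applies to each.

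Of the genes described, the slope was higher in PrEdiff for Zbed6 (1.27), Egr1 (1.18), Pdpr (0.92), Zfp936 (0.82), Kmt2c (0.77), Rex2 (0.68), Zfp51 (0.67), mt-Nd2 (0.65), Zfp97 (0.62), Fzd10 (0.62), Zfp958 (0.59), Itga6 (0.58), Fzd5 (0.56), Bambi (0.56), Lefty1 (0.55), Jun (0.55), mt-Nd1 (0.54) and Il17rd (0.51). It was also higher for Fgf4 (0.49), Idi1 (0.43), Zfp36l2 (0.40), Tob2 (0.40), Nr5a2 (0.37), Nr4a1 (0.35), Sox2 (0.34), Klf6 (0.34), Wee1 (0.30), mt-Cytb (0.30), Spred2 (0.29), Cdkn1b (0.27), Slc2a1 (0.26), Cdkn1a (0.24), Pum2 (0.21) and Skil (0.20). The slope was lower in PrEdiff for Cox17 (−0.99), Gata4 (−0.60), Mettl17 (−0.57), Chchd7 (−0.43), Arglu1 (−0.43), Magohb (−0.40), Aqp8 (−0.38), Gask1b (−0.37), Zdhhc4 (−0.36), Crabp1 (−0.36), Npr1 (−0.35), Polr2g (−0.34), S100a10 (−0.34), Amdhd2 (−0.33), Exosc3 (−0.30), Ndufa12 (−0.28), Cox6b1 (−0.25), Rpl14 (−0.24), Pou5f1 (−0.20), Ctsl (−0.19), Sall4 (−0.19), Sparc (−0.18), Esrrb (−0.15) and Hnrnpa2b1 (−0.13). With 2 libraries for each state and time, no group was large enough to be searched for libraries that stand apart.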

How the results depend on the processing

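Genes with a slope difference numbered 926 (394 higher in PrEdiff and 532 lower). RLE scaling gave 673, of which 160 were lower, library totals 1179 (1126 higher and 53 lower), ribosomal scaling 977 (971 and 6), DESeq2 897 (571 and 326), the replicate block 416 (234 and 182), the added 3 h libraries 180 (160 and 20), the fit without the 1 h libraries 4281 (2013 and 2268), no low-count filter 741 (356 and 385), a filter of 1 CPM 1068, and a minimum of 0.25 log2 units per hour 433 (144 lower). The replicate numbers did not pair the samples, with correlations of −0.0303 to 0.0378 over 15 pairs of groups. Of the genes described, Kmt2c, S100a10, Pou5f1, Sox2, Esrrb, Sparc, Aqp8, Jun, Nr4a1, Cdkn1a, Hnrnpa2b1, Rpl14, Cox6b1 and Ndufa12 were not called with the block. For the first hour, RLE gave 2982 higher, library totals 3431 higher and 1597 lower, and ribosomal scaling 8030 in all (7909 and 121). For the second hour, library totals gave 384 higher and 203 lower and ribosomal scaling 1276 in all, with 1129 lower. With the 3 h libraries, 5210 slopes were called in PrEdiff and 5180 in EPS. Leaving out each library in turn gave 122 to 2012 slope differences (87 to 628 higher and 7 to 1384 lower), 4171 to 4732 first-hour differences (1660 to 2482 and 1774 to 2710), 476 to 970 second-hour differences (116 to 899 and 68 to 496), and 7313 to 8562 slopes in PrEdiff and 8359 to 9554 in EPS.

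The sign turned for some genes, with these values. Tfcp2l1 was 0.025 under RLE, 0.072 under library totals, 0.19 under ribosomal scaling, 0.024 under DESeq2, 0.017 with the 3 h and 0.023 without the 1 h libraries. Under library totals, Nanog was 0.040 and Klf5 0.031. Under ribosomal scaling, Nanog was 0.15, Klf5 0.15, Gata6 0.12, Pdgfra 0.040, Esrrb 0.047, Sparc 0.017, Ctsl 0.0071, Sall4 0.011 and Hnrnpa2b1 0.061. Sox17 was 0.29 under DESeq2 and 0.43 without the 1 h libraries. With the 3 h libraries, Zbed6 was −0.82, Pdpr −0.68, Kmt2c −0.39, Itga6 −0.17, Idi1 −0.094, Il17rd −0.037, Nanog 0.15, Klf5 0.11, Gata6 0.23, Crabp1 0.10, Polr2g 0.054, S100a10 0.035, Pou5f1 0.10, Ctsl 0.026, Rpl14 0.10, Cox6b1 0.078 and Ndufa12 0.045. Without 1 library, Gata6 ran from −0.14 to 0.023, Sox17 from −0.41 to 0.049, Nanog from −0.051 to 0.051, Klf5 from −0.067 to 0.055 and Tfcp2l1 from −0.038 to 0.11. The cause was not tested. With 2 libraries for each state and time, few counts limit genes near 1 CPM, such as Sox17 and Sox7 in EPS.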
